A study of Homo sapiens with 5 samples.

Results

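Long runs of JMJD3 binding sites were examined in telomerase-immortalized human BJ fibroblasts after a dose of 10 Gy ionizing radiation (IR). BJ cells are foreskin fibroblasts that keep dividing because they carry hTERT. A run was defined as neighbouring JMJD3 sites of irradiated cells with gaps of at most 5 kb, and a chain of such sites had to hold 10 or more of them. The members were thus selected on the spacing of the sites in the same list, and the size, gaps, widths and coverage of the runs are given below as a description. The rule found 211 runs with 3665 sites, which is 10.4% of the 35133 JMJD3 sites listed after IR. The list of untreated cells, with 4717 JMJD3 sites, and the p53 lists, with 3232 sites after IR and 361 in untreated cells, were not used to choose them.

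The data are ChIP-seq site lists, made by sequencing the DNA that an antibody recovers together with its protein. There was 1 library for each antibody (a rabbit antibody against JMJD3, or DO-1 against p53) in untreated cells and in cells harvested 6 h after 10 Gy according to the sample labels (the study's text gives a slightly shorter time), and none was repeated. All cells were the same immortalized line, and the cells of every group carry hTERT. Each list gives the start and end of sites and no height, score or read total, so the depth of the libraries is unknown, a site is either listed or not, and lists of different depth can differ in length for that reason alone. No test between conditions was made. Shares of sites carry 95% exact binomial intervals, which express counting error alone, and neighbouring sites share their surroundings, so these intervals are narrower than the spread a repeated experiment would have.

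JMJD3, also called KDM6B, is an enzyme that removes methyl groups from lysine 27 of histone H3, a mark laid down by Polycomb proteins at silent genes. p53 is a transcription factor that recognises a short DNA element and is stabilized when IR breaks DNA. A chromatin enzyme can be found as a narrow peak at a promoter or enhancer, or spread over many kilobases, which a peak caller may break up into many neighbouring sites. Runs are named here by their position on the hg18 assembly, counted from 1, because no gene annotation of that assembly was used. Which genes lie in them was not analysed here.

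After IR, JMJD3 sites formed runs of 10 to 95 sites, with a median of 13 and a middle 50% of 11 to 19. The runs were 4.82 to 102 kb long, with a median of 14.9 kb, and together spanned 3.95 Mb. Sites covered 1.26 Mb of this length, or 31.8%, and made up 15.1% of all sequence covered by JMJD3 sites after IR. The covered share of single runs went from 9.14% to 80.9%, with a median of 29.8%. The median covered share differed little with site number, with 29.2% in the 124 runs of 10 to 14 sites, 29.5% in the 38 of 15 to 19, 32.6% in the 27 of 20 to 29 and 30.8% in the 22 of 30 or more. The gap between neighbouring sites of a run had a median of 358.5 bp, and 2637 of 3454 gaps (76.3%) were under 1 kb. Only 91 gaps were over 4 kb, close to the limit that the rule allows.

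**Figure D1:**
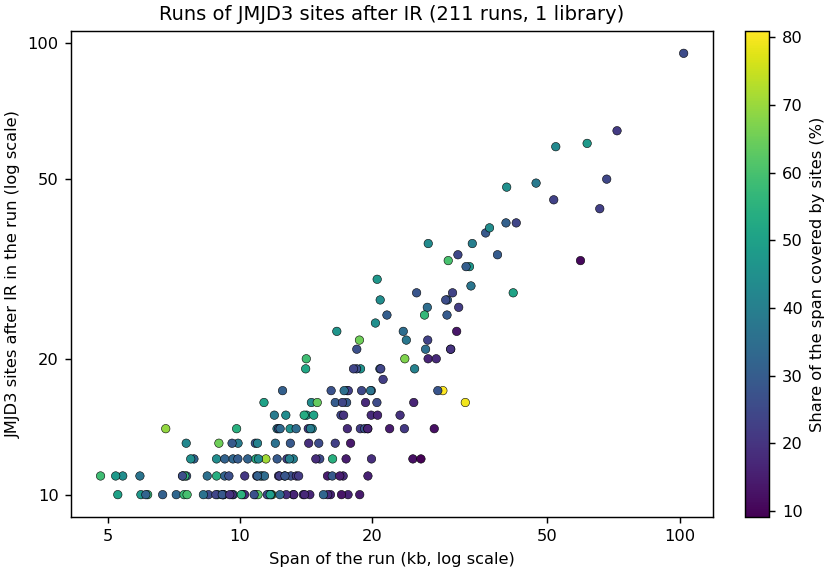
Each of the 211 points is 1 run, plotted by its span in kb and its number of JMJD3 sites after IR, both on log scales. The colour gives the share of the span covered by sites. Most runs hold under 20 sites on under 22 kb, and the run with 95 sites stands at 102 kb.

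The sites within runs were wider than the other JMJD3 sites of irradiated cells, at a median width of 228 bp, while the 31468 sites outside had 184 bp. Of the sites in runs 551 (15%) were at least 500 bp wide, compared with 1044 (3.32%) of those outside. Sites under 200 bp, a width that no site of the other 3 lists falls below, made up 1510 (41.2%) of the sites in runs and 18155 (57.7%) of those outside. The widest member measured 6844 bp and lay on chromosome 17 from 45617915 to 45624758.

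Just inside the limit of the rule were 43 runs of exactly 10 sites, with a median span of 10.2 kb and a median covered share of 29.3%. Just outside were 67 chains of exactly 9 sites, with a median span of 9.20 kb and a median covered share of 25.8%. An untreated JMJD3 site lay in 37 of the former (86.0%) and in 50 of the latter (74.6%). A p53 site after IR lay in 5 of the former and 7 of the latter.

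The question that follows from the design is whether the runs were already bound by JMJD3 before IR. In 193 of the 211 runs (91.5%, 86.9 to 94.9%) at least 1 JMJD3 site of untreated cells lay within the span, and in 187 (88.6%) at least 1 member overlapped such a site. Chains of 5 to 9 sites held an untreated site in 68.0% of cases, chains of 2 to 4 in 21.9% and sites standing alone in 6.61%, and longer chains have more room for one. The number of untreated sites in a run ranged from 0 to 28 with a median of 4. There were 20 runs with 1 untreated site, 85 with 2 to 4, 56 with 5 to 9 and 32 with 10 or more. The runs, which span 3.95 Mb, held 1105 of the 4717 untreated sites (23.4%, 22.2 to 24.7%). Runs with more untreated sites were more densely covered after IR. Their median covered share was 18.2% with none, 21.4% with 1, 26.7% with 2 to 4, 36.2% with 5 to 9 and 45.3% with 10 or more.

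Of the 3665 sites in runs, 1055 (28.8%, 27.3 to 30.3%) overlapped an untreated JMJD3 site, whereas 11.9% of all JMJD3 sites after IR did. Outside the runs the share was 9.92% (9.60 to 10.3%), and the intervals of both groups do not overlap. With sites under 200 bp left out before chaining, the shares were 43.4% in runs and 21.2% outside. The share differed between runs, from 0 to 94.1% of the members with a median of 27.1%, and reached 50% in 37 runs. The untreated sites in the runs were wider than the others in untreated cells, with a median of 333 bp against 259 bp. A JMJD3 site after IR overlapped 1043 of these 1105 sites (94.4%) and 3052 of the 3612 others (84.5%). The runs were chosen for dense sites after IR and the untreated sites in them were wider, both of which favour a higher share in the runs. Their part in it was not tested.

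The site number after IR was 3.32 times that of untreated cells within the runs and 8.71 times outside them. The covered length was 2.42 times as large in the runs and 6.04 times as large outside. In the 193 runs with an untreated site this ratio of lengths had a median of 2.74 and went from 0.867 to 21.0. It was above 1 in 191 of them, which the choice of runs by their sites after IR favours. The exceptions were a run on chromosome 5 from 178438713 to 178447556, with 4.47 kb covered in untreated cells and 3.90 kb after IR, and a run on chromosome 21 from 27126802 to 27140950, with 9.57 and 8.30 kb. These ratios describe the lists. The depth of the libraries is unknown, and the list after IR holds sites down to 125 bp whereas the untreated list begins at 200 bp, and the part of both in the ratios was not tested.

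**Figure D2:**
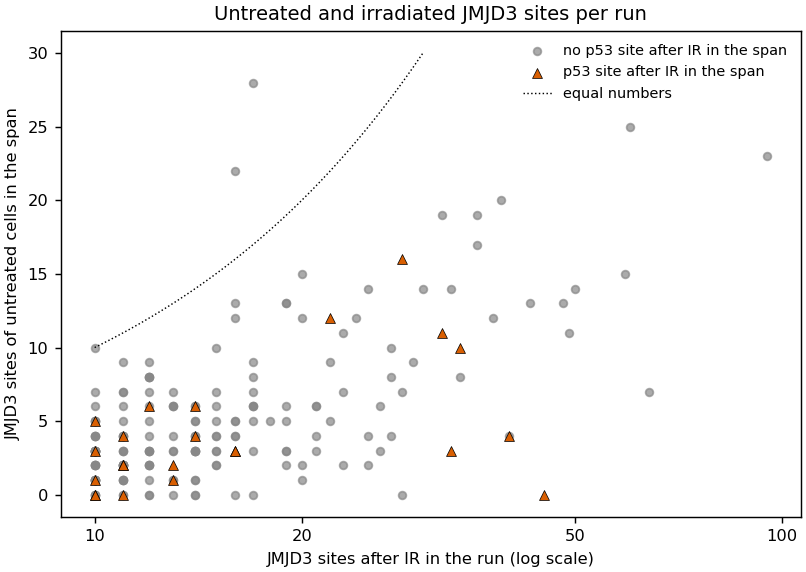
Each point is 1 run, with its JMJD3 sites after IR on a log axis and the JMJD3 sites of untreated cells within its span on the other axis. Triangles mark the 23 runs with a p53 site after IR. In 2 runs the untreated sites outnumber those after IR, with 28 against 17 and 22 against 16.

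Untreated cells had long chains of their own at the same places. By the same rule the untreated list held 25 chains of 10 or more sites, with 343 sites in all and at most 28 in a chain. Of these chains 24 lay in runs of irradiated cells, where they fell into 23 runs. The remaining one, on chromosome 6 from 35545405 to 35551587, had 10 sites in untreated cells and 9 after IR, and so missed the limit by 1 site.

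The sites of a run without an untreated counterpart, 2610 in all, were the narrower ones. Their median width was 195 bp, compared with 419 bp for the 1055 members that overlapped an untreated site. Wide sites meet others more readily, and no untreated site was under 200 bp. Outside the runs the overlapping share also rose with width, from 2.10% at 125 to 149 bp to 63.0% at 500 bp or more. How much of the contrast comes from this way of splitting the sites was not tested. The widest site of the run overlapped an untreated site in 147 of 211 runs (69.7%, 63.0 to 75.8%). Among all sites of 500 bp or more, 75.7% in runs and 63.0% outside overlapped one. The widest sites were not compared with other sites of like width. In the runs 945 of the 2610 (36.2%) were within 1 kb of an untreated site, with a median distance of 1864.5 bp, whereas outside the runs 1577 of 28345 (5.56%) were and the median distance was 132 kb. The limit on gaps and the presence of untreated sites in 193 runs keep these distances short in the runs, so the contrast is given as a description. In the 173 runs with at least 2 untreated sites, the stretch from the first to the last untreated site made up a median of 60.4% of the span. Of the 2129 members listed only after IR in these runs, 1121 (52.7%, 50.5 to 54.8%) lay between the outermost untreated sites and the others beyond them.

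The outermost sites of a run differed from the inner ones. The 422 sites at the ends had a median width of 193 bp and overlapped an untreated site in 73 cases (17.3%, 13.8 to 21.3%), and the 3243 inner sites had a median width of 233 bp and did so in 982 cases (30.3%, 28.7 to 31.9%). Overlap rises with width, and end and inner sites of like width were not compared. When each run was divided into 5 equal parts, from 26.6% to 32.0% of the sites in each part overlapped an untreated site. The widest site of the run fell into the successive parts in 40, 49, 40, 39 and 43 runs. The direction of transcription was not considered.

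No untreated JMJD3 site lay in 18 runs. These runs were about as long as the others, with a median span of 16.6 kb against 14.7 kb, but less of them was covered. Their median covered share was 18.2% against 30.9%, and their widest sites had a median of 485 bp against 866 bp, whereas the median site width per run, 206 against 223 bp at the median, differed less. The nearest untreated JMJD3 site was 6.19 to 1086 kb away, with a median of 72.2 kb, and in 3 runs it was within 10 kb. The largest of them held 45 sites on chromosome 12 from 67487989 to 67539697, a span of 51.7 kb of which 23.2% was covered. The next held 28 sites on chromosome 8 from 74369362 to 74394575, with 28.0% covered and no untreated JMJD3 site within 1086 kb. The third held 17 sites on chromosome 3 from 142642718 to 142658832, with 27.1% covered.

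Among the 22 runs with 30 or more sites the run on chromosome 12 was the only one without an untreated JMJD3 site. It held 1 p53 site after IR, from 67488750 to 67489395, whose centre was 1.08 kb from the start of the run, and a p53 site was listed there in untreated cells too, from 67488820 to 67489209. This p53 site after IR overlapped 2 JMJD3 sites of irradiated cells. The widest JMJD3 site of the run, 949 bp, began at 67492375, beyond the p53 site.

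The largest run lay on chromosome 15 from 78858583 to 78960702 and had 95 JMJD3 sites after IR on 102 kb, with 25.6% covered. It held 23 untreated sites, which covered 7.37% of the span, and 18 of its members overlapped them. A gap of 5.96 kb, little over the limit of 5 kb, separated it from the next run, from 78966661 to 79038697, with 64 sites on 72.0 kb and 21.7% covered. In this second run 7 untreated sites were listed. Neither run held a p53 site, and the nearest p53 site after IR was 293 kb from the first and 401 kb from the second. On the same chromosome a run of 50 sites on 68.2 kb, from 58418872 to 58487113, held 14 untreated sites and no p53 site.

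On chromosome 7 from 130195199 to 130256792 a run of 60 sites covered 47.7% of 61.6 kb. It held 25 untreated sites covering 19.5% of the span, and the nearest p53 site after IR was 8.16 kb away. On chromosome 22 from 44843591 to 44895855 a run of 59 sites covered 42.8% of 52.3 kb and held 15 untreated sites. A run of 43 sites on chromosome 10 from 63466994 to 63532798 was 65.8 kb long, with 22.7% covered and 13 untreated sites. These long runs held untreated JMJD3 sites and no p53 site, but of all 22 runs with 30 or more sites 5 held a p53 site after IR.

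The most densely covered runs were of moderate site number, because wide sites filled them. On chromosome 2 from 217239727 to 217268657, 17 sites covered 80.9% of 28.9 kb after IR. In untreated cells 28 sites covered 65.0% of the same span, and 16 of the 17 members overlapped them. On chromosome 17 from 45604224 to 45636764, 16 sites covered 79.3% of 32.5 kb after IR, and 22 sites covered 60.4% in untreated cells. In these runs the number of sites was lower after IR, while the covered length was 1.24 and 1.31 times as large. On chromosome 17 the widest member, of 6844 bp, alone overlapped 8 untreated sites. The third, on chromosome 7 from 5526832 to 5538282, had 12 sites covering 71.1% of 11.5 kb after IR and 6 sites covering 59.7% in untreated cells. Site number and covered length thus gave different orders of the runs.

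At the other end were runs of thinly spread sites. A run of 12 sites on chromosome 10 from 95206406 to 95232200 covered 9.14% of 25.8 kb and had no untreated site. A run of 33 sites on chromosome 2 from 36436344 to 36495836 covered 10.7% of 59.5 kb, with 22 of its sites under 200 bp and 3 untreated sites. A run of 14 sites on chromosome 22 from 44360008 to 44387663 covered 12.1% of 27.7 kb and held 3 untreated sites.

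**Figure D3:**
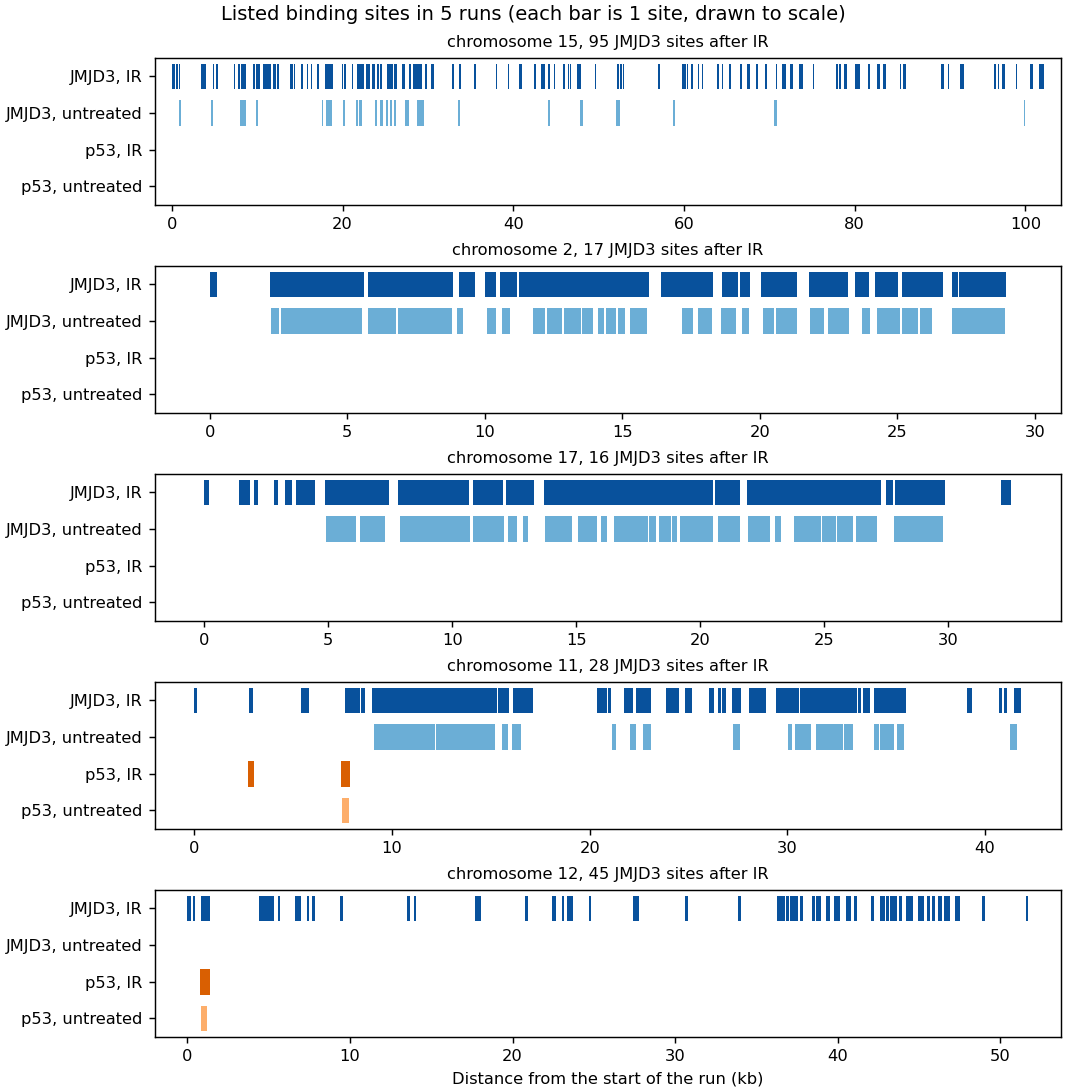
Listed binding sites in 5 runs, with the distance from the start of the run in kb on the x axis and 1 row for each of the 4 lists. Each bar is 1 site drawn to scale. The runs are those with the most sites (chromosome 15), the highest covered share (chromosome 2), the widest site (chromosome 17), the most p53 sites (chromosome 11, with 2) and the most sites without an untreated JMJD3 site (chromosome 12).

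Runs were compared with shorter chains of the same list. The share of JMJD3 sites after IR that overlapped an untreated JMJD3 site was 6.61% (6.24 to 7.01%) for the 16418 sites standing alone, 10.7% (10.1 to 11.3%) in chains of 2 to 4 sites, 21.6% (20.3 to 22.9%) in chains of 5 to 9 sites and 28.8% in runs. For p53 sites after IR the order per site was opposite. A p53 site overlapped 2.38% (2.15 to 2.63%) of the JMJD3 sites standing alone, 2.23% (1.96 to 2.52%) of those in chains of 2 to 4, 1.17% (0.859 to 1.56%) of those in chains of 5 to 9 and 0.682% (0.442 to 1.01%) of those in runs. Over all JMJD3 sites after IR the share was 2.02%, and outside the runs it was 2.18% (2.02 to 2.34%). The share in runs changed with the rule, to 0.313% with gaps of at most 2 kb, 0.386% without sites under 200 bp, 0.437% when the overlap had to cover 50% of the width and 1.83% (0.50 to 4.61%) when sites within 1 kb were merged, and this last interval includes the share outside, 2.54%. The first 2 classes overlap in their intervals for p53, as do the last 2. Counted per chain instead of per site, the share with a p53 site was larger in longer chains, which have more room for one. It was 2.38% for sites standing alone, 5.16% (4.54 to 5.83%) for chains of 2 to 4, 7.18% (5.26 to 9.52%) for chains of 5 to 9 and 10.9% (7.04 to 15.9%) for runs. From chains of 2 to 4 on, the intervals of neighbouring classes overlap.

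**Figure D4:**
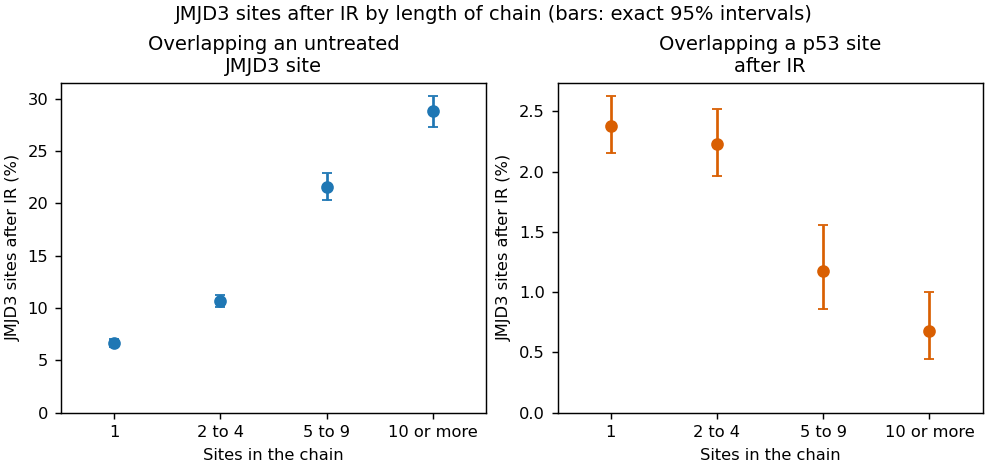
Share of JMJD3 sites after IR that overlap a JMJD3 site of untreated cells (left) or a p53 site after IR (right), by the number of sites in their chain. Points are shares in percent and bars are exact 95% intervals. From sites standing alone to runs the left share goes from 6.61% to 28.8% and the right share from 2.38% to 0.682%.

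Wide sites overlap others more readily, so sites of like width were compared. Among sites of 125 to 149 bp, 9.12% (7.12 to 11.5%) in runs and 2.10% (1.81 to 2.41%) outside overlapped an untreated JMJD3 site. Among sites of 500 bp or more the shares were 75.7% (71.9 to 79.2%) and 63.0% (60.0 to 66.0%). The intervals were apart in all 5 width classes. For p53 the share in runs was below that outside in all 5 classes, from 0.414% against 1.52% in the narrowest to 1.63% (0.750 to 3.08%) against 4.98% (3.74 to 6.48%) in the widest. These rest on 25 overlapping sites in runs, 3 to 9 in each class.

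**Figure D5:**
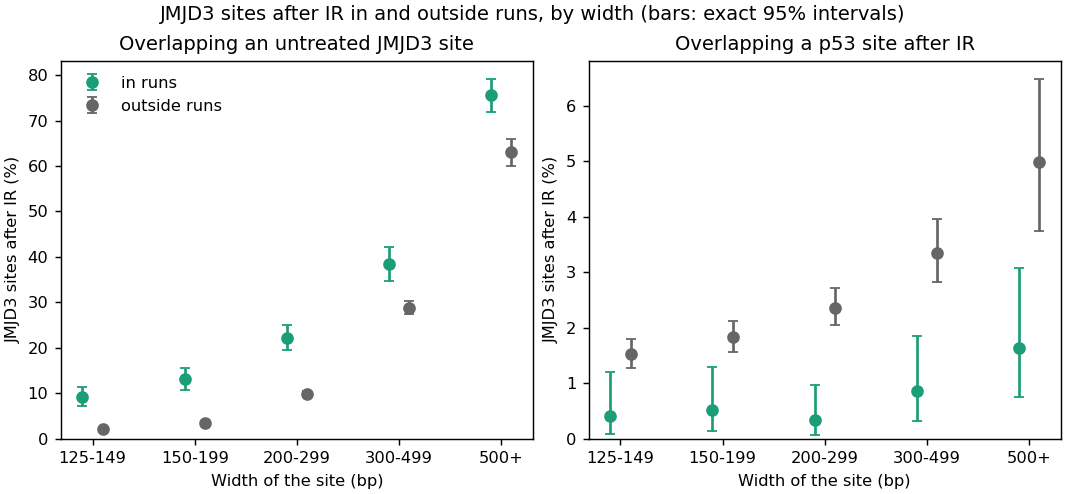
Share of JMJD3 sites after IR that overlap an untreated JMJD3 site (left) or a p53 site after IR (right), by the width of the site in bp, for sites in runs and outside. Bars are exact 95% intervals. In every width class the sites in runs lie above the others on the left and below them on the right.

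Sites were also counted per length of sequence. JMJD3 sites after IR were about equally dense in the 3 kinds of chain, with 924 per Mb of span in chains of 2 to 4 sites, 854 in chains of 5 to 9 and 927 in runs. Untreated JMJD3 sites, placed by their centres, numbered 97.3, 188 and 278 per Mb, and p53 sites after IR 18.9, 10.5 and 5.82 per Mb. Short chains begin and end tightly around their sites, which raises all such densities in them. Outside the runs there were 2.67 p53 sites per Mb within 10 kb (11 sites, against 23 in the runs) and 3.07 per Mb at 10 to 50 kb. Over the whole extent of the lists, runs included, there were 1.10 per Mb. For untreated JMJD3 the corresponding values were 10.9, 7.73 and 1.61 per Mb. From the runs to the adjoining 10 kb the density of untreated JMJD3 sites thus dropped by a larger factor than that of p53 sites, and a chain ends by definition where no further JMJD3 site after IR follows.

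A p53 site after IR lay in 23 of the 211 runs (10.9%, 7.04 to 15.9%), and 24 p53 sites in all did, or 0.743% of the 3232. The share of runs depended on the rule, with 3.40% when gaps were at most 2 kb, 6.35% when narrower sites than 200 bp were dropped before chaining and 25% (4 of 16 runs) when sites within 1 kb were merged first. In 26 runs (12.3%) a p53 site lay in the run or within 5 kb of it, in 33 (15.6%) within 10 kb and in 67 (31.8%) within 50 kb. The other 144 runs had none within 50 kb, and the median distance from a run to the nearest p53 site was 110 kb. In untreated cells 5 p53 sites lay in 5 of the runs. Of the 24 p53 sites after IR, 21 (87.5%, 67.6 to 97.3%) overlapped a member of the run, in 20 runs, while 20.7% (19.3 to 22.2%) of the p53 sites outside runs overlapped a JMJD3 site after IR. A p53 site inside a run lies among closely spaced JMJD3 sites by construction, so these shares are not comparable. An untreated p53 site was overlapped by 5 of the 24 (20.8%, 7.13 to 42.2%) and by 10.5% (9.49 to 11.7%) of those outside, and these intervals overlap.

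The p53 sites stood at different places in their runs. In 6 cases the centre of the p53 site was within 1 kb of an end of the run. These were on chromosome 1 from 181503774 to 181504055, chromosome 2 from 37710084 to 37710531, chromosome 3 from 49370779 to 49371430, chromosome 4 from 77921874 to 77922530, chromosome 5 from 139917205 to 139917444 and chromosome 19 from 46416311 to 46416625, and each overlapped a JMJD3 site of the run. In 7 cases, the site on chromosome 3 among them, p53 overlapped the widest JMJD3 site of its run. Over all 24 the distance from the nearer end ran from 0.01 to 13.4 kb with a median of 4.57 kb.

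Only 1 run held more than 1 p53 site. It lay on chromosome 11 from 64937728 to 64979546 and had 28 JMJD3 sites after IR, the widest of them 6342 bp, covering 50.9% of 41.8 kb. Its p53 sites after IR, from 64940451 to 64940754 and from 64945149 to 64945600, each met a member of the run, and the second was listed for p53 in untreated cells as well. The run held 16 untreated JMJD3 sites covering 30.1% of its span, and no p53 site overlapped any of them. The widest p53 site in a run, 1116 bp, was on chromosome 13 from 113572949 to 113574064, in a run of 40 JMJD3 sites with 4 untreated ones, and had a p53 site in untreated cells too.

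Among the 18 runs without an untreated JMJD3 site, 4 held a p53 site after IR (22.2%, 6.41 to 47.6%), compared with 19 of the 193 others (9.84%, 6.03 to 14.9%). The intervals overlap, the first rests on few runs, and the difference was not tested. Besides the run on chromosome 12, they were a run of 10 sites on chromosome 1 from 179322777 to 179341494, whose p53 site overlapped no JMJD3 site, a run of 10 sites on chromosome 1 from 181503905 to 181517830, whose p53 site lay at its start, and a run of 11 sites on chromosome 5 from 139906557 to 139917470, whose p53 site lay at its end.

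Runs were listed on 23 chromosomes, all except Y. The share of a chromosome's JMJD3 sites after IR that belonged to runs had a median of 10.3% over these and was highest on chromosome 15 (304 of 1321 sites, 23%) and chromosome 22 (169 of 754, 22.4%). It was lowest on chromosome 20 (24 of 815, 2.94%) and chromosome 6 (59 of 1888, 3.13%). Single runs weigh heavily here, as the largest holds 95 of the 304 sites on chromosome 15. Some runs lay next to each other. In 13 cases the gap to the next run was at most 50 kb and in 6 at most 10 kb. On chromosome 8, 3 runs of 19, 18 and 23 sites followed each other from 70559762 to 70642016, and on chromosome 22, 3 runs of 20, 40 and 14 sites from 44277072 to 44387663, so that a gap limit of 10 kb would join them.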

How the data were processed

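ChIP-seq was made of p53 and JMJD3 in untreated and irradiated BJ cells, 1 library each. Per the study's methods and the labels, the authors aligned tags to hg18 with Bowtie 0.12.7, kept tags with a unique alignment, and called the peaks of each library with MACS version 2, using IgG reads as control. The threshold is not given in the sources used here. The deposited lists hold positions of sites (chromosome, first and last base) and nothing else, so read depth is unknown. The only IgG library listed was of untreated cells, so no IgG library of irradiated cells was available, and it was not analysed here.

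JMJD3 sites of irradiated cells were chained with gaps of at most 5 kb, and chains of 10 or more were taken as runs. Overlap meant at least 1 shared bp, and a site was in a run when it overlapped its span. Counts were made with numpy 2.4.6 and pandas 2.3.3 in Python 3.11.15. Exact 95% intervals are from scipy 1.17.1, and figures from matplotlib 3.10.9. bedtools 2.31.1 gave the same numbers of runs and overlapping members. The steps were tested on made-up lists, in which 542 of 542 planted runs and 2215 of 2215 planted overlaps among 11090 sites were recovered.

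The runs, comparisons and alternatives were chosen with earlier results of these data known. Runs named in the text are the 5 with most sites, the 5 longest, the 3 most and 3 least covered, the 3 with most p53 sites, the 3 with most untreated sites, the 3 largest without untreated sites, and that of the widest site. Ties went by chromosome and start. Others were named after their values were seen. Gene names and sequences need an hg18 reference and were not analysed here.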

Additional observations from a re-analysis of the deposited data

How the results depend on the processing

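Of 41 comparisons of a main value with an alternative, 22 stayed within the counting interval (numbers of sites within 1.5 times) and 19 moved. The direction of the difference between runs and other sites, more overlap with untreated JMJD3 and less with p53, was the same under all 8 settings in which it was recomputed. With gaps of at most 2 kb the runs held 2236 sites, of which 34.5% overlapped an untreated site and 0.313% a p53 site, and 3.40% of the runs held a p53 site. With gaps of at most 10 kb 25.8% of members overlapped an untreated site. With at least 8 sites 85.2% of runs held an untreated site, and with at least 15 sites, which left 2245 members, 95.4% did. With JMJD3 sites of at least 200 bp alone, 1036 members remained, 43.4% overlapped an untreated (21.2% outside the runs) and 0.386% a p53 site (2.74% outside), and 95.2% and 6.35% of runs held one. Merging sites within 1 kb before chaining left 219 members, as it lowers the site number by construction, with 26.0% at untreated and 1.83% at p53 sites (0.50 to 4.61%, an interval that includes the 2.54% outside) and p53 in 25% of the 16 runs. With 50% of the width covered, the shares of members were 21.9% and 0.437%. For the other moves the cause was not tested. Autosomes alone moved none of the 5 results. No paired analysis was possible because there was only 1 library per group. Unknown depth limits each comparison of lists before and after IR.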

Other observations

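A run is a count of sites, so stretches filled by a few wide sites do not qualify. Of the 21647 chains under 10 sites, 14 covered at least 4.33 kb, the median covered length of a run. Those described here were picked with their values known. The one with the largest covered length lay on chromosome 15 from 37658877 to 37680124, where 7 sites, the widest of 11349 bp, covered 95.7% of 21.2 kb, and untreated cells had 2 sites. A chain on chromosome 6 from 36752102 to 36766563 came second with 9 sites, 1 short of the limit. They covered 80.1% of 14.5 kb, a share that, among the 211 runs, only the run on chromosome 2 from 217239727 to 217268657 exceeds. This chain held no untreated JMJD3 site and 4 p53 sites after IR, more than any of the 211 runs.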
